A study of Mus musculus with 12 samples.

Results

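What hypoxic preconditioning alone did to the uninjured mouse kidney was read from 6 of the 12 RNA-seq libraries of the study: 3 preconditioned sham kidneys (HS1 to HS3) and 3 normoxic sham kidneys (NS1 to NS3). All were whole kidneys of wild-type mice, 1 mouse per library. HS mice had spent 2, 4 and 8 h on days 1, 2 and 3 in a chamber at normal pressure whose oxygen was brought down from room air to 8% within 20 min, and then had the sham procedure. NS mice had the sham procedure with no preconditioning. The other 6 libraries, used here only for a closing comparison, came from mice whose renal pedicles on both sides were clamped for 45 min, with kidneys taken after 12 h of reperfusion, without (NR) or with (HR) preconditioning. Neither the strain, age and sex of the mice nor the time between the last hypoxic session, the sham procedure and tissue collection is given in the labels. The level of Xist, which is transcribed from the inactive X chromosome of females, was at most 0.00661 FPKM in the 6 sham libraries, while the Y-linked Ddx3y was between 5.13 and 6.59 FPKM in all 6. FPKM are fragments per kilobase of gene, scaled to the depth of the library, so that levels can be compared between genes. Of 25553 genes in the table, 11695 reached an FPKM of 1 in 3 or more sham libraries and were tested. At the edge of that filter, Serpinf1 (HS 1.00, 1.22 and 1.05 FPKM) was just inside and Gm14410 (1.16 and 1.08 FPKM in NS1 and NS3, 0.999 in HS1) just outside.

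Breathing air low in oxygen stabilises the hypoxia-inducible factors, which switch on genes of glycolysis, oxygen delivery and erythropoietin, and repeated short exposures are used to make organs more resistant to later ischemia. The kidney makes most of the erythropoietin of an adult, and its proximal tubule burns fatty acids, so its gene expression responds to oxygen, to feeding and to steroid hormones. In mice many proximal tubule genes also depend on androgens and are higher in males than in females.

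Among sham kidneys, preconditioning was followed by higher levels of the fatty acid hydroxylases Cyp4a14 and Cyp4a10, of globins, and of 10 of 27 genes of sterol and fatty acid synthesis. Lower levels were found in 6 of 12 male-biased tubule genes and 11 of 25 chaperones. Genes were compared on log2(FPKM + 1) with limma and called at a Benjamini-Hochberg adjusted p under 0.05. In all, 375 genes (3.21% of those tested) were called: 242 (2.07%) rose and 133 (1.14%) fell, and the change was 2-fold or more in 21 and 19 of them. HS and NS libraries were fully separated in 2758 genes that were higher (23.6% of those tested) and 755 that were lower (6.46%). An unadjusted p under 0.05 was found in 2770 of the 11695 genes. Counts of list members given below are to be read against these shares. The split by direction moved with the scaling of the libraries. The median log2 difference of all tested genes was 0.066 with FPKM as deposited, so that 64.5% of the calls were increases. After median-ratio rescaling the median was -0.005, and 94 genes (0.804% of those tested) were higher and 169 (1.45%) lower (35.7% higher). All 94 had also been called higher with FPKM as deposited, and 131 of the 133 genes that fell there were called lower after rescaling too. Kap alone took 2.47 to 2.80% of the recovered reads in NS and 1.55 to 1.84% in HS libraries. The number of calls fell when any 1 of the 6 libraries was left out, in fits that have fewer samples. It was 55 without NS3, 90 without NS2, 95 without NS1, 127 without HS1, 219 without HS3 and 265 without HS2. Of 89 called genes picked out for description, 34 kept the call without NS3, 46 without NS1 and 46 without NS2. Depth was alike, with 33005188 to 35601058 reads recovered per sham library.

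**Figure D1:**
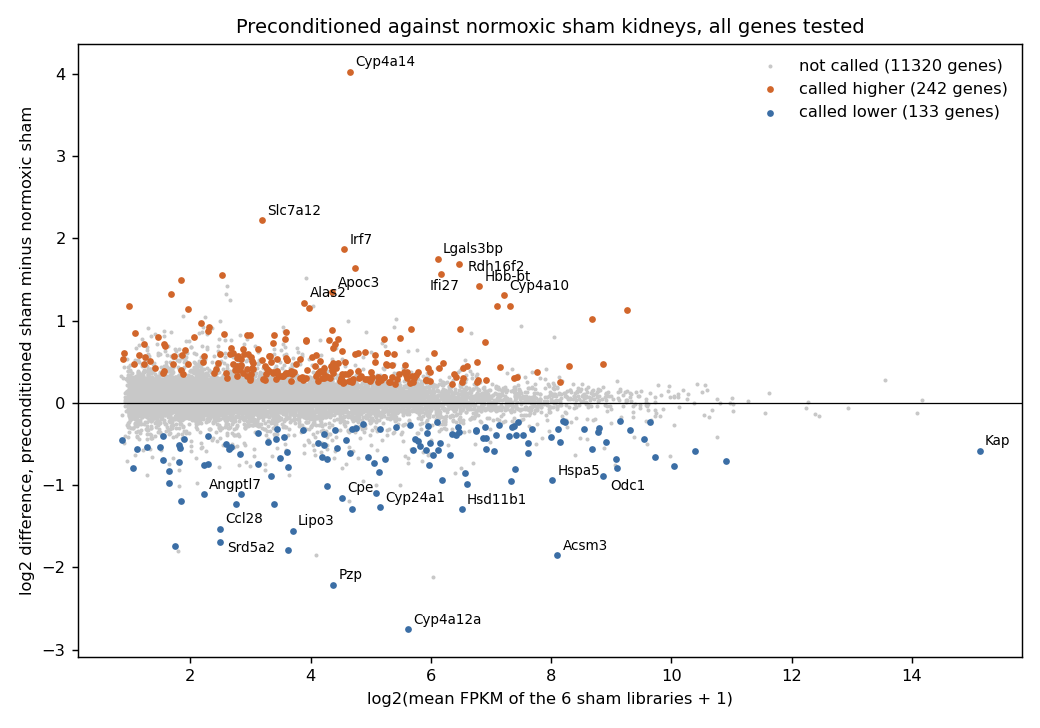
Each point is 1 of the 11695 genes tested, with its level (log2 of the mean FPKM of the 6 sham libraries plus 1) on the x axis and its log2 difference between preconditioned and normoxic sham kidneys on the y axis. The 242 genes called higher (orange) and the 133 called lower (blue) stand outside a grey band of uncalled genes that is centred slightly above 0, and Cyp4a14 stands highest.

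The steepest increase was that of Cyp4a14, a fatty acid omega-hydroxylase that is a classical target of the lipid sensor PPARalpha (chromosome 4, 115486200 to 115496158 on GRCm38). Its FPKM was 1.72, 1.75 and 1.93 in NS1 to NS3 and 28.3, 60.3 and 51.8 in HS1 to HS3. Every preconditioned kidney was thus far above every normoxic one, with a log2 difference of 4.02 ± 0.24 (SE; limma adjusted p = 5.7e-04). Its neighbour Cyp4a10, with the same enzymatic role, read 87.2, 80.2 and 85.7 FPKM in NS and 194, 229 and 211 in HS (1.31 ± 0.07, adjusted p = 4.5e-04). Rdh16f2, of the retinol dehydrogenase 16 family, read 40.2, 40.6 and 40.1 FPKM in NS and 107, 131 and 165 in HS (1.69 ± 0.14, adjusted p = 0.00263). Slc7a12, a transporter of small neutral amino acids, read 2.53, 1.97 and 1.68 FPKM in NS and 11.4, 9.02 and 22.1 in HS (2.22 ± 0.28, adjusted p = 0.0129). In Slc7a12 HS3 was well above the other HS libraries, and the call was lost without NS2 or NS3. The other genes among the 12 largest increases were the interferon-induced Irf7, Lgals3bp, Ifi27l2a and Ifi27, the red cell genes Hbb-bt, Hba-a2 and Alas2, and Apoc3, an apolipoprotein of triglyceride-rich particles (1.35 ± 0.14). The calls of Cyp4a14 and Rdh16f2 held in all 16 alternative analyses.

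The steepest decrease was that of Cyp4a12a, the arachidonic acid hydroxylase of the male mouse kidney (chromosome 4, 115299046 to 115332815), which lies in the same cluster as Cyp4a14 and Cyp4a10. It read 75.6, 82.0 and 95.9 FPKM in NS and 12.9, 12.1 and 10.2 in HS, a log2 difference of -2.75 ± 0.11 (limma adjusted p = 1.4e-04). The near-identical Cyp4a12b was not called (0.23, adjusted p = 0.32), and how reads shared by the pair were counted is not given in the sources used here. Pzp, a protease inhibitor of the alpha-2-macroglobulin family, read 31.4, 37.1 and 30.8 FPKM in NS and 8.09, 5.55 and 5.67 in HS (-2.21 ± 0.13, adjusted p = 5.7e-04). Acsm3, a mitochondrial acyl-CoA synthetase of medium chains, read 432, 454 and 402 FPKM in NS and 133, 128 and 96.5 in HS (-1.85 ± 0.12, adjusted p = 6.9e-04). In all of these genes the lowest NS library was more than 2-fold above the highest HS library.

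Other large decreases included Srd5a2 and Hsd11b1. Srd5a2, which turns testosterone into dihydrotestosterone, read 6.66, 9.82 and 6.42 FPKM in NS and 1.71, 1.54 and 1.67 in HS (-1.69 ± 0.14, adjusted p = 0.00303). Hsd11b1, which regenerates active glucocorticoid, read 115, 139 and 131 FPKM in NS and 54.6, 57.0 and 44.0 in HS (-1.30 ± 0.11, adjusted p = 0.00309). The groups did not overlap in either gene, and the spread within HS was small. Cyp24a1, which inactivates vitamin D, read 35.2, 58.3 and 54.4 FPKM in NS and 24.9, 15.7 and 18.6 in HS (-1.27 ± 0.21, adjusted p = 0.0299), with NS1 well below the other NS libraries. Its call was lost without NS2, NS3, HS2 or HS3. The rest of the 12 largest decreases were Lipo3, a lipase (-1.55 ± 0.08), the mucosal chemokine Ccl28 (-1.53 ± 0.19), Nat8f5, of the N-acetyltransferase 8 family (-1.29 ± 0.20), Il34, a ligand of the CSF1 receptor (-1.23 ± 0.13), Cpe, a carboxypeptidase that trims peptide hormones (-1.15 ± 0.11), and Angptl7, an angiopoietin-like protein (-1.11 ± 0.23). Angptl7 was called in 2 of its 15 alternatives, while Pzp, Acsm3, Srd5a2, Lipo3, Hsd11b1, Cpe and Cyp4a12a were called in all 16.

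**Figure D2:**
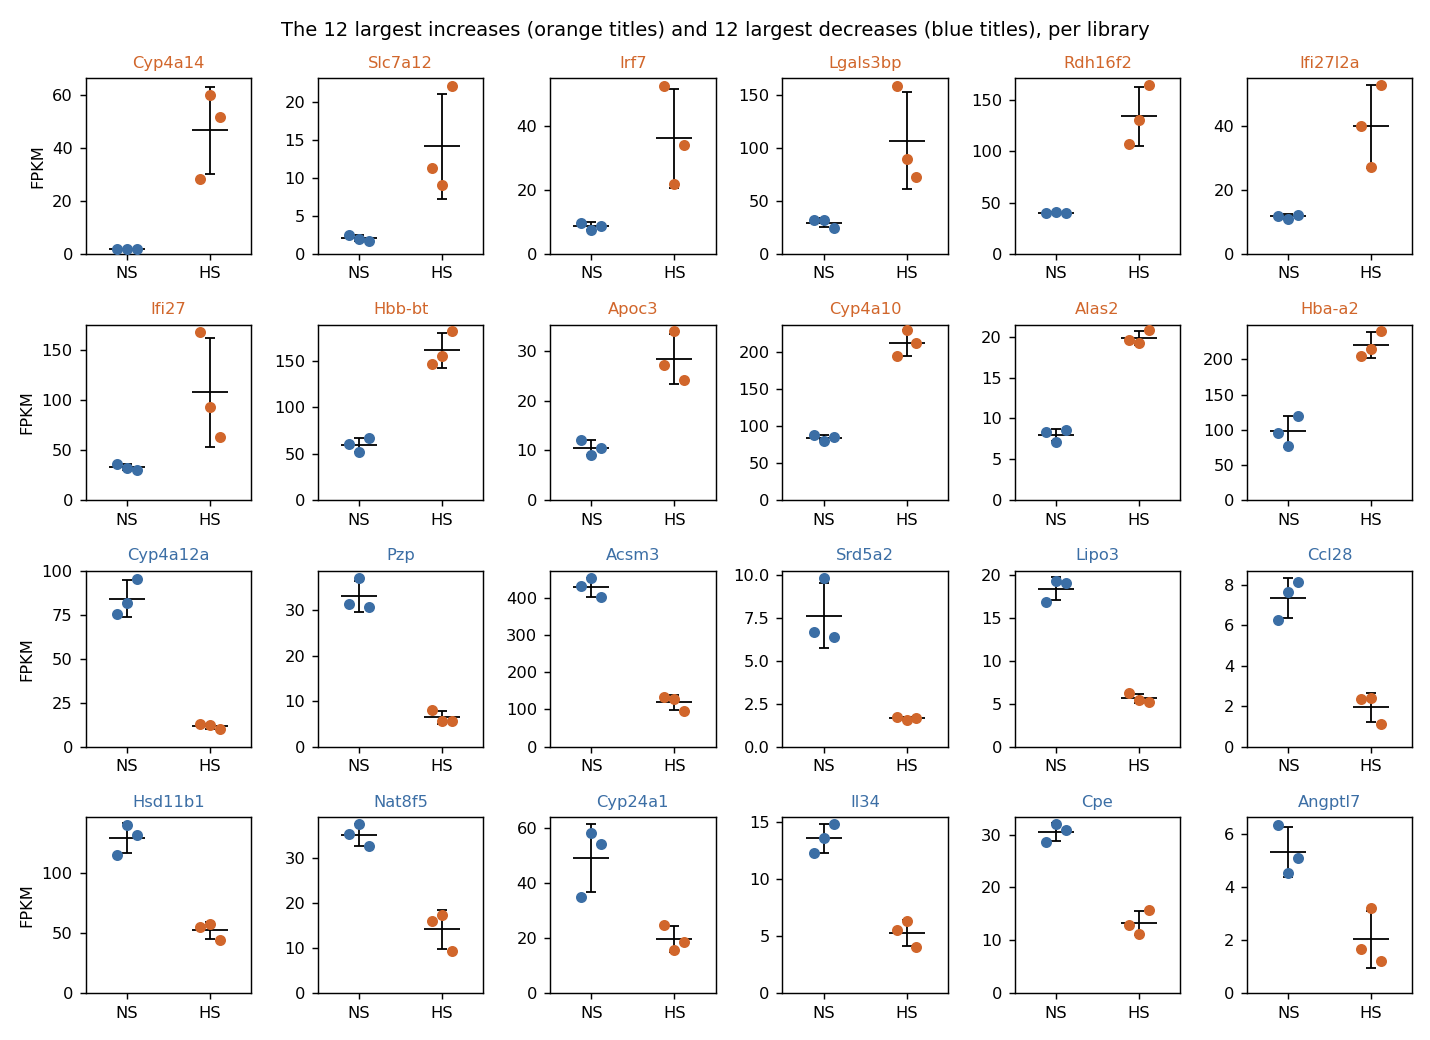
FPKM (y axis, from 0) of the 12 genes with the largest increases (orange titles) and the 12 with the largest decreases (blue titles) in the 3 normoxic (NS, blue points) and 3 preconditioned (HS, orange points) sham kidneys, with bars for the mean and SD. The groups do not overlap in any panel, as the choice of the genes required, and the spread within HS is widest for Cyp4a14, Slc7a12 and the interferon-induced genes.

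Of 12 male-biased kidney genes, 6 fell, against 1.14% of all genes tested, and none rose. Their median log2 difference was -0.67, against 0.066 over all genes tested. The list was chosen with earlier results of these data known. Besides Cyp4a12a and Acsm3, Kap fell, which encodes the androgen-regulated kidney protein and was the most abundant transcript of the table. It read 41959, 40582 and 45928 FPKM in NS and 30198, 30171 and 25477 in HS (-0.58 ± 0.09, adjusted p = 0.0239). Odc1, the ornithine decarboxylase that starts polyamine synthesis, read 574, 629 and 587 FPKM in NS and 365, 393 and 233 in HS (-0.88 ± 0.18, adjusted p = 0.0441). Gusb, the lysosomal beta-glucuronidase, read 6.69, 6.62 and 6.12 FPKM in NS and 3.94, 4.24 and 4.02 in HS (-0.56 ± 0.06, adjusted p = 0.00961). Cyp4b1, a hydroxylase of fatty acids and xenobiotics, went from 2370 ± 146 FPKM (SD, n = 3) in NS to 1470 ± 295 in HS (-0.71 ± 0.14). HS3 was the lowest HS library in 5 of the 6 genes that fell. Slco1a1, an organic anion transporter, read 88.3, 111 and 106 FPKM in NS and 37.1, 36.1 and 8.25 in HS. The groups did not overlap, but with HS3 so far below the others it was not called (-2.12 ± 0.50, adjusted p = 0.0646). Cyp2e1 (-0.50, adjusted p = 0.0715), Cyp7b1 (-0.63, adjusted p = 0.125), Cyp2j13 (-0.79, adjusted p = 0.079) and Cyp2d9 (0.12, adjusted p = 0.26) were not called. All 6 decreases were called after median-ratio rescaling too. The 6 calls dropped to 3 without any of the NS libraries, and Kap, Odc1 and Cyp4b1 each lost theirs in all of those fits. Odc1 also lost its call without HS1, and Cyp4b1 without HS1 or HS2.

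Proximal tubule markers went both ways. Of 27 tested, 2 rose and 4 fell, against 2.07% and 1.14% of all genes tested. The groups did not overlap in 6 that were higher and 8 that were lower, against 23.6% and 6.46% of all. After rescaling none was called higher and 4 were called lower. Their median log2 difference was -0.003 (-0.09 after rescaling). Besides Kap, the medium-chain acyl-CoA synthetase Acsm2 fell (863 ± 30.6 to 636 ± 27.0 FPKM, SD, n = 3; -0.44 ± 0.05), a gene with close copies beside it. The sulfate transporter Slc13a1 rose, reading 150, 146 and 148 FPKM in NS and 179, 177 and 192 in HS (0.30 ± 0.05, adjusted p = 0.0288), as did the sodium bicarbonate cotransporter Slc4a4 (0.28 ± 0.05, adjusted p = 0.0322). Neither of these increases was called after rescaling or without any of the NS libraries. The call of Slc13a1 was also lost without HS1 or HS3, and that of Slc4a4 without any one of the 6 libraries. The defining phosphate transporter Slc34a1 was at 2087 ± 67.5 FPKM in NS and 2061 ± 56.2 in HS (-0.02, adjusted p = 0.86), and the endocytic receptor Lrp2 at 199 ± 9.09 and 202 ± 5.05. In whole kidney a lower level can come from fewer cells of a type or from less RNA per cell, which cannot be told apart here.

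Of 84 cytochrome P450 genes in the table, 34 were tested, of which 8 rose and 4 fell, against 2.07% and 1.14% of all tested. The increases were those of Cyp4a14, Cyp4a10 and Cyp4a31 (0.50 ± 0.06), the epoxygenase Cyp2c23 (0.75), Cyp2d26 (0.74 ± 0.06), Cyp2d22 (0.50), Cyp2s1 (0.46) and Cyp51 (0.28), which is an enzyme of sterol synthesis. The decreases were those of Cyp4a12a, Cyp24a1, Cyp4b1 and Cyp2a4 (-0.48). Members of the Cyp4a cluster on chromosome 4 therefore moved in opposite directions. Their sequences are close, and the counting of shared reads is not given in the sources used here. Cyp4a31 read 88.9, 93.1 and 85.9 FPKM in NS and 136, 123 and 122 in HS, so its groups did not overlap.

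Cyp4a14, Cyp4a10 and Cyp4a31 also belong to a list of 28 tested PPARalpha and fasting genes, of which 5 rose and none fell. Another was Plin5, a lipid droplet coat protein, which read 1.38, 1.19 and 1.23 FPKM in NS and 2.14, 1.92 and 2.09 in HS (0.43 ± 0.07, adjusted p = 0.032). Its call was lost without any of the NS libraries and without HS1 or HS3. The list as a whole had a median of 0.06, close to that of all genes tested, of which 2.07% rose. Other targets of the same receptor were not called: the starvation-induced kinase Pdk4 (-0.30, adjusted p = 0.32), the lipase inhibitor Angptl4 (-0.67, adjusted p = 0.15), the carnitine palmitoyltransferase Cpt1a (-0.06, adjusted p = 0.58) and Ppara itself (-0.39, adjusted p = 0.082).

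Conjugating enzymes gave more increases than decreases, as did all genes tested (242 and 133). Of 30 tested UDP-glucuronosyl-, sulfo- and glutathione transferases, 8 rose and 1 fell, against 2.07% and 1.14% of all genes tested. Their median was 0.13, and 5 of the increases remained calls after rescaling. Gsta2, a glutathione transferase inducible by the stress factor NRF2, read 75.9, 84.4 and 90.0 FPKM in NS and 196, 182 and 192 in HS (1.18 ± 0.07, adjusted p = 5.7e-04). Gsto1, of the omega class, read 21.5, 20.0 and 19.4 FPKM in NS and 28.9, 33.2 and 31.5 in HS (0.60 ± 0.07, adjusted p = 0.0105). The groups were well apart in both genes, and both were called in all 16 alternatives. Gsta3 (0.43 ± 0.05), Gstm1 (0.45 ± 0.07), Gstm5 (0.31), Gstm7 (0.66), Gstt3 (0.26) and Ugt1a10 (1.18 ± 0.16) rose as well, and Ugt2b38 fell (-0.56). Ugt1a10, at 0.138 to 0.256 FPKM in NS and 1.23 to 2.5 in HS, passed the filter only through the HS libraries, and it shares exons with the other Ugt1a genes. Of 17 NRF2 targets, 3 rose (Gsta2, Gstm1 and the quinone reductase Nqo1, 0.63 ± 0.08) and 1 fell (the malic enzyme Me1, -0.39 ± 0.07), with a median of 0.11. The call of Gstm1 was lost without any of the NS libraries, that of Me1 without any one of the 6 libraries, and that of Nqo1 without NS3. None of 18 antioxidant enzymes was called by limma (median 0.01, and 1 called by voom on recovered reads). Of them 6 had an unadjusted p under 0.05, against 2770 of all 11695 genes tested.

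Of 27 tested amino acid transporters, 3 rose, against 2.07% of all genes tested, and none fell (median 0.09). Slc38a3, which carries glutamine in and out of cells, read 7.93, 10.5 and 8.03 FPKM in NS and 20.9, 19.5 and 21.8 in HS (1.15 ± 0.10, adjusted p = 0.00469). This call held in all 16 alternatives. The others were Slc7a12 and the proline transporter Slc6a20a (0.52 ± 0.11, adjusted p = 0.0492), which was called in 3 of 16 alternatives. Of 25 tested organic ion transporters, 3 fell, against 1.14% of all genes tested, and none rose (median -0.07). Slco1a6, an organic anion transporter, read 98.6, 95.2 and 94.2 FPKM in NS and 60.5, 61.4 and 63.1 in HS (-0.63 ± 0.05, adjusted p = 0.00157). Slc22a28 (-0.58 ± 0.06) and Slc22a30 (-0.65 ± 0.09) fell by about as much. Of the drug transporters of the basolateral membrane, the renal anion transporter Slc22a6 (-0.23, adjusted p = 0.12) and Slc22a8 (0.18, adjusted p = 0.19) were not called. The angiotensin-converting enzyme gene Ace fell: it read 78.0, 85.8 and 68.5 FPKM in NS and 48.9, 50.04 and 38.1 in HS (-0.75 ± 0.12, adjusted p = 0.0258). The groups did not overlap, and the call was lost without any of the NS libraries and without HS1.

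Red blood cell transcripts were higher in every preconditioned kidney. Of 10 tested red cell genes, 6 rose, against 2.07% of all genes tested, and none fell, with a median of 0.86. Hbb-bs, an adult beta globin, read 374, 323 and 462 FPKM in NS and 774, 784 and 975 in HS (1.13 ± 0.14, adjusted p = 0.0118). Hba-a1, an alpha globin, read 269, 232 and 306 FPKM in NS and 511, 508 and 621 in HS (1.02 ± 0.12, adjusted p = 0.00999). The other copies Hbb-bt (1.42 ± 0.11) and Hba-a2 (1.18 ± 0.15) moved with them, and reads shared by the near-identical copies may be split. Alas2, the first enzyme of heme synthesis in red cells, read 8.30, 7.11 and 8.52 FPKM in NS and 19.5, 19.2 and 20.8 in HS (1.22 ± 0.07, adjusted p = 5.7e-04). HS3 was the highest HS library in all 6 genes that rose, NS3 the highest NS library in 5 of them, and the groups did not overlap in any. Car2, a carbonic anhydrase of red cells and of several tubule segments, rose by 0.37. Fech (-0.04) and Slc25a37 (-0.01), which serve heme synthesis, were not called. Summed over the 15 red cell genes in the table, FPKM was 990 to 1246 in NS and 1981 to 2405 in HS libraries.

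Transcripts of red cell precursors were scarce in both groups. The globin chaperone Ahsp was at 0.060, 0 and 0.285 in NS and 0.595, 0.358 and 0.368 in HS. It was below the filter and was not tested, though each HS value was above each NS value. Hemgn was at most 0.013 FPKM in every sham library. Epo, the hormone that drives red cell formation, was at most 0.042 FPKM in the 6 libraries and listed at 0 in NS3, HS1 and HS2. Among 16 iron-handling genes 1 rose, the ferroxidase ceruloplasmin gene Cp, which read 5.56, 5.45 and 5.43 FPKM in NS and 9.15, 8.35 and 8.22 in HS (0.56 ± 0.06, adjusted p = 0.00867). The transferrin receptor gene Tfrc was not called (0.54, adjusted p = 0.11).

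Of 19 tested interferon-induced genes, 2 were called, and their levels were uneven between preconditioned mice. All 19 differences were above 0, with a median of 0.88. In 16 of them the groups did not overlap, against 23.6% of all genes tested in that direction. After rescaling 1 of them was called. Irf7, a transcription factor that amplifies type I interferon signalling, read 9.81, 7.44 and 8.76 FPKM in NS and 52.7, 21.9 and 34.1 in HS (1.87 ± 0.27, adjusted p = 0.0202). Ifi27 read 36.2, 32.3 and 30.6 FPKM in NS and 169, 92.9 and 62.8 in HS (1.57 ± 0.30, adjusted p = 0.0421). HS1 was highest in these, and in both the lowest HS library still exceeded all of NS. Lgals3bp, a secreted glycoprotein that interferon induces, read 32.3, 32.0 and 24.3 FPKM in NS and 159, 89.8 and 72.2 in HS (1.75 ± 0.26, adjusted p = 0.0233), and Ifi27l2a rose by 1.64 ± 0.21. In RefSeq the span of Ifi27 (chromosome 12, 103434189 to 103440245) lies inside that of Ifi27l2a (103433873 to 103443680), and whether counting used strand is not given, so their reads may not be separable.

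The members that were not called were also uneven between HS libraries. Isg15, a ubiquitin-like modifier, read 6.55, 5.57 and 6.37 FPKM in NS and 22.4, 9.20 and 35.4 in HS (1.52 ± 0.40, adjusted p = 0.0782). Ifit3, another interferon-induced gene, read 8.48, 8.31 and 8.38 FPKM in NS and 23.1, 10.2 and 34.3 in HS (1.17 ± 0.36, adjusted p = 0.11). HS2 was the lowest HS library in 18 of the 19 genes and HS3 the highest in 15. Without HS2, 17 of the 19 were called higher, and without any of the NS libraries none was. Summed FPKM of the list was 129 to 153 in NS and 468, 242 and 377 in HS1 to HS3.

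The promoters of Isg15 and Ifit3 are shown because they hold the sequence by which interferon is known to act. They run from 250 bases upstream to the start of the gene (RefSeq, GRCm38.p6) and are written 5′ to 3′ on the strand of the gene. Capitals mark GAAA, 2 free bases and GAAA, the core of the interferon-stimulated response element, searched on both strands, with overlapping matches merged and the free N bases left in lower case. Isg15 is on the minus strand at chr4:156200819-156201068 and Ifit3 on the plus strand at chr19:34583279-34583528.
Isg15: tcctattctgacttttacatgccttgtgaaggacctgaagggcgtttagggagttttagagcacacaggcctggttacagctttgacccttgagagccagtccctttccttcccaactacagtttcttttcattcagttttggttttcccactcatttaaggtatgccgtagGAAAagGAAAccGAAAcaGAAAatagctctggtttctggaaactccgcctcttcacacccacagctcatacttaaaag
Ifit3: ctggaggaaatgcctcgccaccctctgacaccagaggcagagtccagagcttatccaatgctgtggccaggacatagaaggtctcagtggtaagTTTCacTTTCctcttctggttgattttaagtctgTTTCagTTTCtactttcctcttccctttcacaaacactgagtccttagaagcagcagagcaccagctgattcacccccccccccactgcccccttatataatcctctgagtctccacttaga
Isg15 held 3 overlapping matches, starting 78, 72 and 66 bases before the gene, and Ifit3 held 2. Of the 19 tested members, 15 had a promoter in the RefSeq table and 8 of these held the motif within 250 bases upstream or 50 downstream, against 3.99% of the 27025 genes with a window. The called gene Irf7 held none in its window.

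Of all lists, sterol and fatty acid synthesis held the most increases. Of 27 members tested, 10 rose, against 2.07% of all genes tested, and none fell. Their median was 0.36, and 6 were called after rescaling. Srebf1 and Srebf2, the transcription factors that control the pathway, both rose. Srebf1 read 10.5, 10.9 and 9.20 FPKM in NS and 18.6, 18.8 and 16.7 in HS (0.76 ± 0.08, adjusted p = 0.00734), and Srebf2 read 18.5, 20.4 and 17.4 in NS and 26.7, 28.2 and 25.6 in HS (0.49 ± 0.07, adjusted p = 0.019). The fatty acid desaturase Scd1 read 29.96, 36.8 and 37.2 FPKM in NS and 60.2, 70.0 and 66.0 in HS (0.90 ± 0.10, adjusted p = 0.00821), and Scd2 rose by 0.61 ± 0.07. These groups did not overlap. Along the sterol pathway, mevalonate kinase Mvk (0.72), Fdps, which makes farnesyl diphosphate (0.67 ± 0.09), Msmo1 (0.58), Nsdhl (0.58) and Cyp51 (0.28) rose. Hmgcs1, an early enzyme of the pathway, was not called (0.10, adjusted p = 0.76), nor was Idi1 (-0.49, adjusted p = 0.21). The lipogenic enzymes Fasn (0.12), Acaca (0.16) and Acly (0.01) were not called either. HS3 was the lowest HS library in 23 of the 27 genes. The number of increases was 14 without HS3, 2 without NS3, 3 without NS1, 4 without HS1, 5 without NS2 and 6 without HS2.

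Chaperones were lower in preconditioned kidneys. Of 25 tested genes of heat shock and protein folding, 11 fell, against 1.14% of all genes tested, and none rose. Their median was -0.52. In 16 the groups did not overlap with HS lower, against 6.46% of all. In the endoplasmic reticulum, where secreted and membrane proteins fold, 9 of 11 listed members fell. This subdivision was drawn up after values were seen. Hspa5, the main chaperone of that compartment (BiP), read 322, 286 and 413 FPKM in NS and 201, 178 and 148 in HS (-0.94 ± 0.15, adjusted p = 0.0261). Sdf2l1, one of its cofactors, read 23.6, 21.5 and 29.0 FPKM in NS and 13.6, 11.9 and 9.73 in HS (-1.01 ± 0.14, adjusted p = 0.0171). The groups did not overlap in either, with NS3 highest and HS3 lowest. Creld2 (-1.09 ± 0.20) and Manf (-0.98 ± 0.19), which are secreted when folding is disturbed, the chaperones Hyou1 (-0.84 ± 0.14), Hsp90b1 (-0.49 ± 0.10) and Calr (-0.35 ± 0.07), and the disulfide isomerases Pdia4 (-0.52) and Pdia6 (-0.34 ± 0.07) fell with them. In the cytosol, Hsp90aa1, the inducible form of HSP90, read 178, 195 and 266 FPKM in NS and 117, 103 and 104 in HS (-0.95 ± 0.14, adjusted p = 0.0202). Its constitutive partner Hsp90ab1 read 617, 612 and 778 FPKM in NS and 437, 405 and 404 in HS (-0.68 ± 0.10, adjusted p = 0.019). Other heat shock genes spread widely and were not called: Hspa1a (-0.88, adjusted p = 0.37), Hspa1b (-0.79, adjusted p = 0.35) and Hspb1 (-1.19, adjusted p = 0.081).

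NS3 was the highest NS library in all 11 genes that fell and in 23 of the 25 tested. NS3 also had the highest summed FPKM of immediate early genes among NS libraries (161, 195 and 380 in NS1 to NS3), while HS ranged from 142 to 362; the part of this in the chaperone result was not tested. Without NS3 the median of the 25 genes was -0.34 and 2 were called, and without NS1 it was -0.54 with 2 called. None of the endoplasmic reticulum members was called in either of these fits, although their median remained -0.44 without NS3. The heat shock factor gene Hsf1 (-0.02) and 13 genes of the integrated stress response (median -0.005, none called by limma or by voom, 2 at an unadjusted p under 0.05) had differences near 0.

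The promoters of 5 of these genes are shown because they carry the endoplasmic reticulum stress element, the site through which the unfolded protein response is known to raise chaperone genes. Capitals mark CCAAT and CCACG with 9 free bases between them, searched on both strands, with the N bases in lower case and a match on the other strand shown as CGTGG and ATTGG. Each run is the 250 bases before the gene on its own strand, 5′ to 3′ (RefSeq, GRCm38.p6): Hspa5 at chr2:34771840-34772089 (plus), Hsp90b1 at chr10:86705445-86705694 (minus), Creld2 at chr15:88819396-88819645 (plus), Pdia6 at chr12:17266339-17266588 (plus) and Calr at chr8:84846932-84847181 (minus).
Hspa5: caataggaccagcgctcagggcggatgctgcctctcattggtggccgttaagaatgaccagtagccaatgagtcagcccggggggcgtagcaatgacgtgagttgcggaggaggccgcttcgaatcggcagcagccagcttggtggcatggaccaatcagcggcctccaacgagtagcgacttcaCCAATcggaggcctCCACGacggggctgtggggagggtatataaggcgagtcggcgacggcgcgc
Hsp90b1: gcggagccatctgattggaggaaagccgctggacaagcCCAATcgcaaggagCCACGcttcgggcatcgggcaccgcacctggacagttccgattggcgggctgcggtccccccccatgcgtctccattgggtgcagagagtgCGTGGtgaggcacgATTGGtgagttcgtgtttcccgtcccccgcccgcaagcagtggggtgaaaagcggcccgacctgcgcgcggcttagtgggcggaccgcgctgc
Creld2: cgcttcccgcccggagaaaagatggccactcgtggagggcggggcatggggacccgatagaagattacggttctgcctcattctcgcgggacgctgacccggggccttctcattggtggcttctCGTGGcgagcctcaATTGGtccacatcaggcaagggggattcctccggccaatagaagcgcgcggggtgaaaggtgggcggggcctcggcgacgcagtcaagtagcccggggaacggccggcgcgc
Pdia6: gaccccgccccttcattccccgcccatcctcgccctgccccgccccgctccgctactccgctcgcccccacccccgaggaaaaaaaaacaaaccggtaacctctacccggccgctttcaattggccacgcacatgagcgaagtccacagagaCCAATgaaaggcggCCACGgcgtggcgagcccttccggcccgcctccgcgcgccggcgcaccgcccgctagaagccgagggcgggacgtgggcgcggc
Calr: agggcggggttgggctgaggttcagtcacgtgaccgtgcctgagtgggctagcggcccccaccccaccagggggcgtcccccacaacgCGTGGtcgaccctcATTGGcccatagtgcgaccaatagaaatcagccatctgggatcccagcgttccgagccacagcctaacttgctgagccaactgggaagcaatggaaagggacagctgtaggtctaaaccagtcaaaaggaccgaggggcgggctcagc
Of the 11 endoplasmic reticulum members, 9 had a promoter in the RefSeq table and 6 held the motif, where 0.137% of the 27025 genes with a window do. Besides the genes shown, these were the lectin chaperone Canx, which was not called (-0.22, adjusted p = 0.067). Hsp90b1 held 2 matches, 1 on each strand. Sdf2l1 and Pdia4, which fell, held none in the window.

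**Figure D3:**
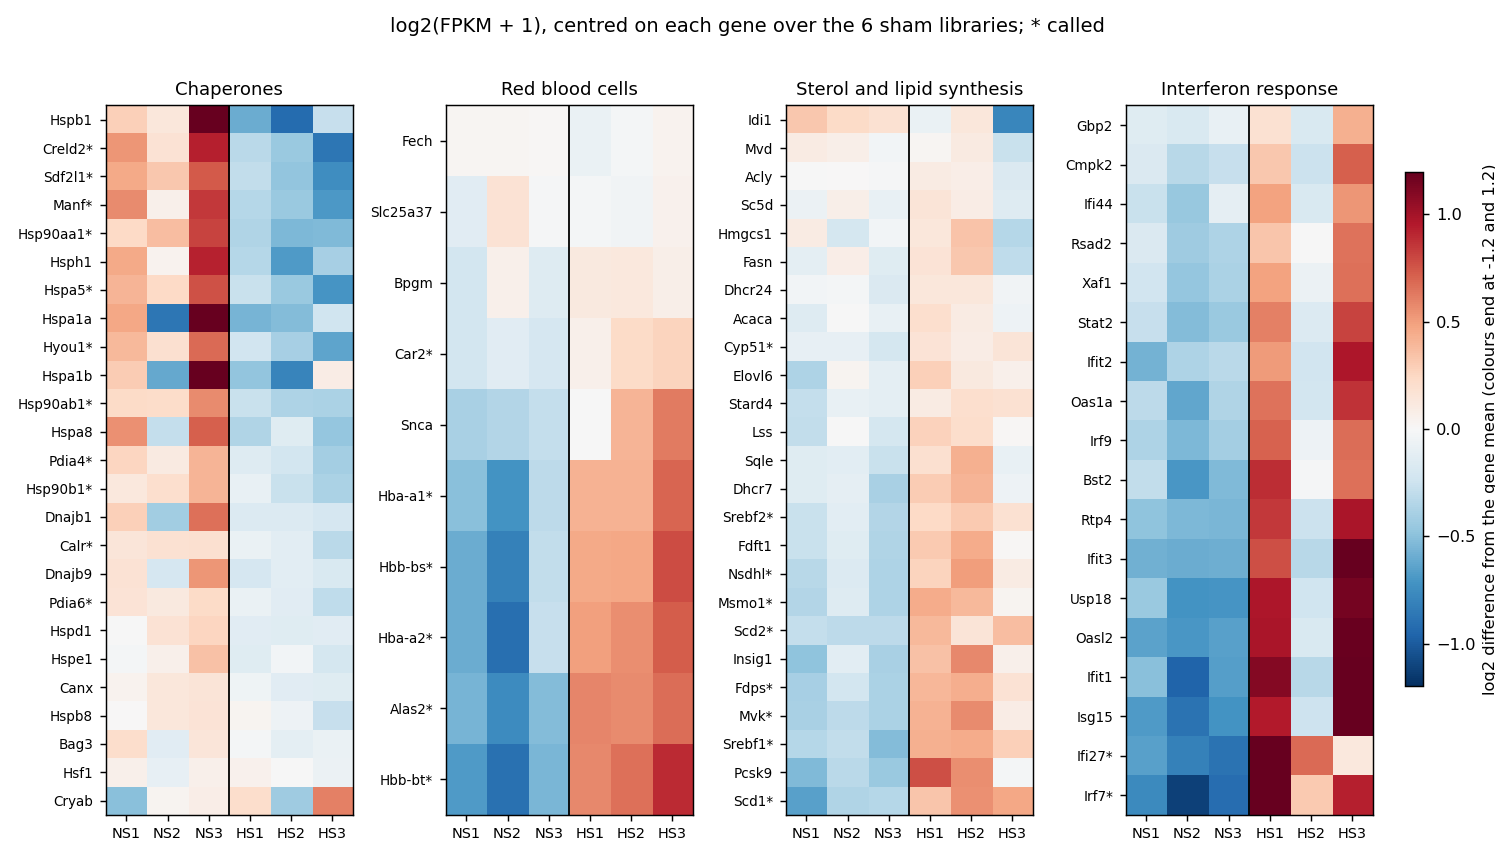
Colours give log2(FPKM + 1) of tested genes as the difference from its mean over the 6 sham libraries (columns), for chaperones, red blood cell genes, sterol and lipid synthesis and the interferon response, with a star at called genes and colours that end at -1.2 and 1.2. NS3 is the reddest column for chaperones, HS3 for red blood cell genes, and HS2 is the palest preconditioned library for the interferon response.

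Targets of hypoxia went both ways at the time of sampling. Of 31 tested hypoxia and HIF target genes, 1 rose and 2 fell, against 2.07% and 1.14% of all genes tested. Their median was 0.03, with 18 differences above 0 and 13 below. An unadjusted p under 0.05 was found in 8, against 2770 of all 11695 genes tested. On recovered reads voom called 4, of which 2 were higher. The glucose transporter Slc2a1 read 21.1, 22.2 and 19.7 FPKM in NS and 27.1, 26.9 and 28.9 in HS (0.38 ± 0.06, adjusted p = 0.0258). The collagen prolyl hydroxylases P4ha1 (-0.49 ± 0.10, adjusted p = 0.0496) and P4ha2 (-0.47 ± 0.09, adjusted p = 0.0381) fell. All 3 calls were lost without NS1, NS3, HS1 or HS3, and that of P4ha1 without any one of the 6 libraries. The growth factor Vegfa was at 54.9 ± 5.12 FPKM (SD, n = 3) in NS and 57.4 ± 3.46 in HS (0.07 ± 0.08, adjusted p = 0.643), and the oxygen sensor Egln3 at 4.43 ± 1.00 and 4.05 ± 0.652 (-0.10 ± 0.15, adjusted p = 0.715). Their groups overlapped. None of 10 HIF factors and regulators was called by limma or by voom, and 3 had an unadjusted p under 0.05: Hif1a differed by 0.23 ± 0.10 (adjusted p = 0.193) and Epas1, which encodes HIF-2alpha, by 0.25 ± 0.08 (adjusted p = 0.119). HIF proteins are controlled mainly by their stability, which transcript levels do not measure. Of 15 glycolysis genes 1 rose, the aldolase Aldoc (0.60 ± 0.13, adjusted p = 0.0498). Its call was lost without any of the NS libraries and without HS1 or HS3. Of 16 clock genes 1 fell, Per2, which read 2.27, 1.96 and 2.87 FPKM in NS and 1.34, 1.26 and 1.32 in HS (-0.54 ± 0.10, adjusted p = 0.0424). Its call was lost without any one of the 6 libraries.

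The title of the study names the IL-17A receptor and its adaptor TRAF6. In sham kidneys Il17ra read 10.7, 8.99 and 7.15 FPKM in NS and 9.40, 8.80 and 7.65 in HS (-0.04 ± 0.13, adjusted p = 0.891), and Traf6 4.96, 4.62 and 4.91 in NS and 5.38, 4.52 and 5.26 in HS (0.05 ± 0.07, adjusted p = 0.703). The groups overlapped in both. Il17rc, the partner chain, differed by 0.10 ± 0.05 (adjusted p = 0.296). Of 17 tested IL-17 receptors, adaptors and kinases, 1 was called: Il17re, the chain for IL-17C, read 2.90, 2.79 and 2.75 FPKM in NS and 4.37, 3.90 and 4.94 in HS (0.50 ± 0.08, adjusted p = 0.0288). Its call was lost without NS1, NS2, NS3, HS1 or HS3. None of 10 tested genes of the IL-17 and NF-kB response was called by limma or by voom (median -0.08, 2 at an unadjusted p under 0.05). Of 17 tubular injury genes 1 rose, Spp1 (osteopontin), which read 386, 392 and 389 FPKM in NS and 490, 521 and 615 in HS (0.47 ± 0.08, adjusted p = 0.0308). Its call was lost without any of the NS libraries and without HS2. The injury marker Lcn2 was at 2.72 ± 0.821 FPKM in NS and 4.09 ± 1.04 in HS (0.46 ± 0.20, adjusted p = 0.211). Havcr1 (KIM-1) was below the filter, at 0.400 to 0.623 FPKM in NS and 0.884 to 1.02 in HS.

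In the collecting duct and thin limb, genes were called higher at a larger share than the 2.07% of all genes tested. Of 12 principal cell genes, which reabsorb water and sodium in the collecting duct, 2 rose and none fell (median 0.35). The vasopressin receptor Avpr2 read 13.2, 13.5 and 14.3 FPKM in NS and 21.8, 18.1 and 20.0 in HS (0.51 ± 0.07, adjusted p = 0.0204), and the water channel Aqp3 rose by 0.42 ± 0.08. Aqp2, the channel that vasopressin moves, differed by 0.80 (adjusted p = 0.064). Of 12 acid-secreting and base-secreting intercalated cell genes, 2 rose (median 0.29): the anion exchanger Slc4a1, which red cells also carry, from 12.1 ± 1.10 to 18.3 ± 0.611 FPKM (SD, n = 3; 0.56 ± 0.07, adjusted p = 0.0139), and the proton pump subunit Atp6v1b1 (0.34 ± 0.06, adjusted p = 0.0403). Of 7 thin limb genes, 2 rose (median 0.26), among them the urea transporter Slc14a2 (0.77 ± 0.09, adjusted p = 0.011). Over all 11695 genes tested, 2770 had an unadjusted p under 0.05. So did 8 principal cell, 10 intercalated cell and 2 thin limb genes. On recovered reads voom called 5, 6 and 2 of them, all higher. After rescaling, 1 call remained in each of these 3 lists, and without NS3 only Slc14a2 of the 5 genes named here kept its call. No gene of the thick ascending limb (11 tested, median 0.19), distal convoluted and connecting tubule (12, 0.08), podocytes (11, 0.14), fibroblasts and pericytes (8, 0.27) or macrophages (10, 0.08) was called by limma. In those lists 7, 2, 4, 5 and 2 genes had an unadjusted p under 0.05, and voom called 1 gene of the thick ascending limb and 1 of podocytes. Of 14 endothelial genes 2 rose, Eng (0.30 ± 0.05) and Plvap (0.26 ± 0.05). Neither was called after rescaling or without NS1, NS2, NS3, HS1 or HS2, and Plvap also lost its call without HS3.

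Immune cells other than macrophages were near the limit of detection, with 2 of 13 neutrophil, 1 of 12 T and NK cell and 1 of 7 B and plasma cell genes tested and none called by limma or by voom. The last, Jchain of plasma cells, was the only one of these with an unadjusted p under 0.05 (-1.80, adjusted p = 0.065). The antigen-presenting molecule H2-Aa fell (-0.38 ± 0.07, adjusted p = 0.0403), but the call was lost without any one of the 6 libraries and held in 6 of 16 alternatives. Of adrenal markers none reached the filter, with Cyp11b1 and Nr5a1 listed at 0 in all 6 libraries, and none of 4 tested liver or 4 tested fat genes was called by limma (1 and 0 at an unadjusted p under 0.05; voom called 1 liver gene). None of 83 cytosolic ribosomal protein genes, 18 TCA cycle genes or 13 genes of the mitochondrial genome was called by limma or by voom. An unadjusted p under 0.05 was found in 18, 2 and 1 of them, against 2770 of all 11695 genes tested.

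**Figure D4:**
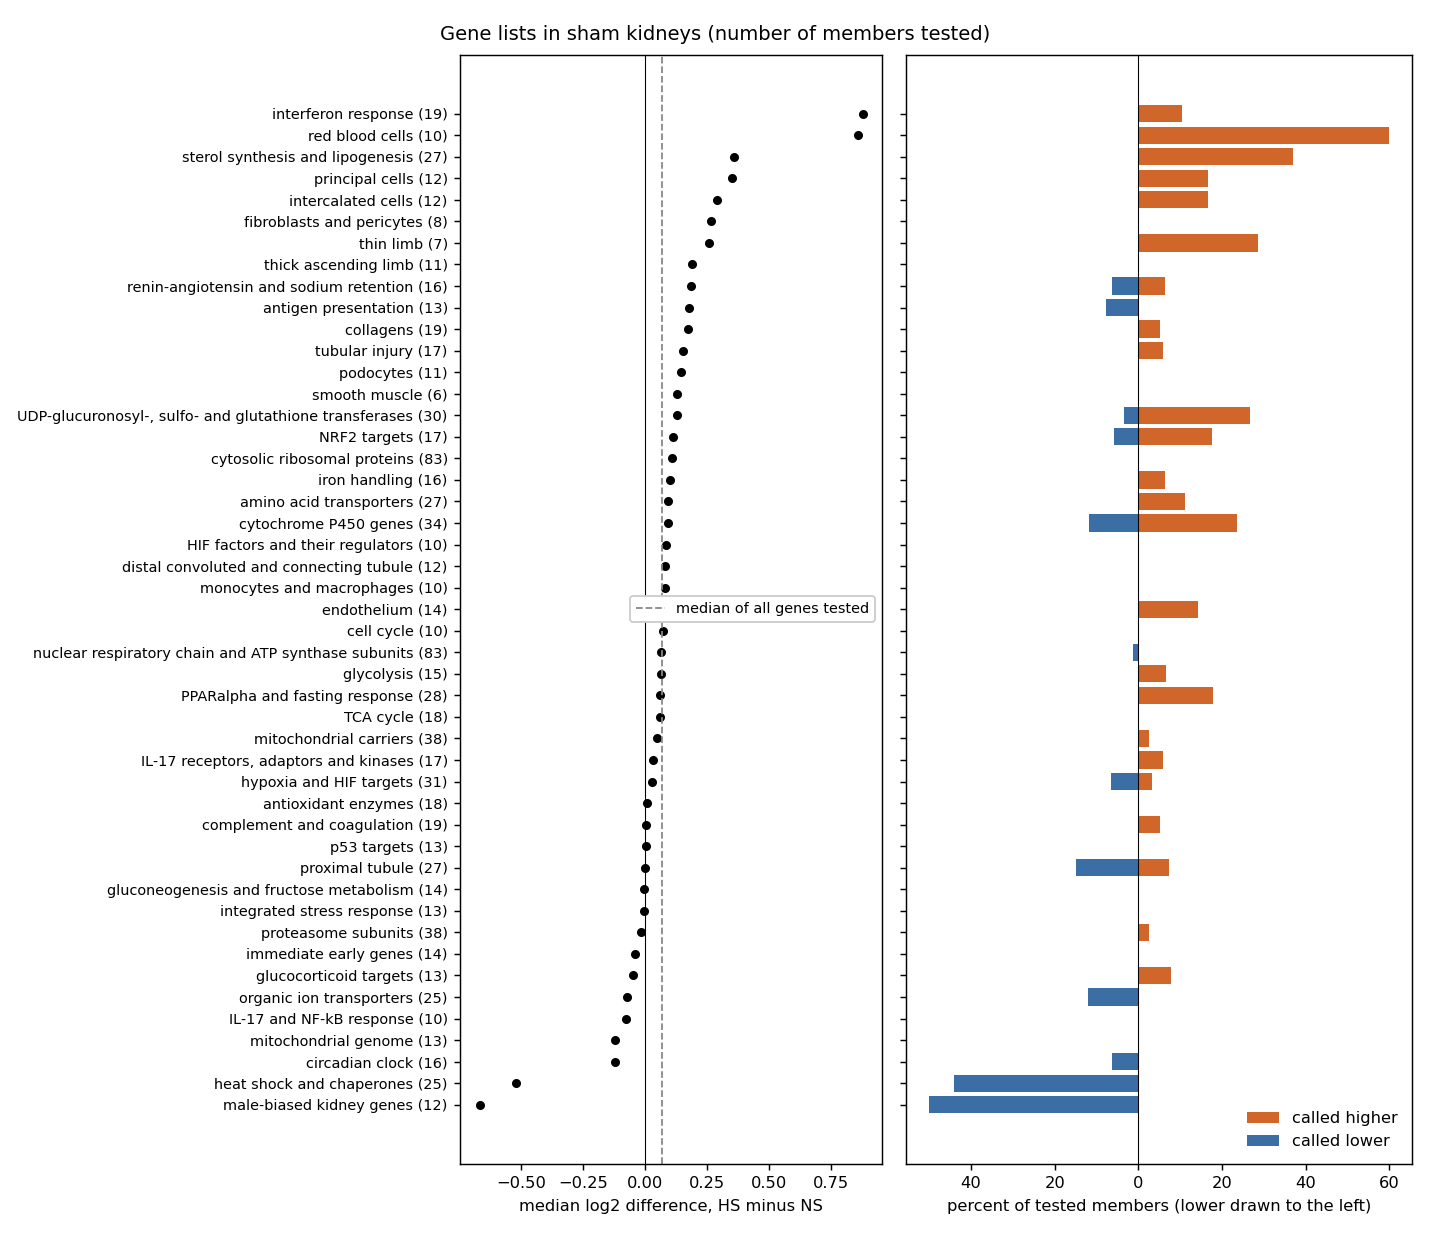
Left, the median log2 difference between preconditioned and normoxic sham kidneys of each list with at least 5 tested members (number in brackets), with the median of all genes tested as a dashed line. Right, the percent of tested members called higher (orange) and lower (blue), drawn in the same order of lists. By the median, the interferon response and red blood cells stand at the top and chaperones and male-biased genes at the bottom, while by the percent called higher red blood cells (6 of 10) and sterol synthesis (10 of 27) lead and the interferon response has 2 of 19.

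The difference that preconditioning made was then set beside that in injured kidneys, HR minus NR, which shares no library with HS minus NS. Of the 242 genes that rose in sham kidneys, 180 (74.4%) were also higher in HR than in NR, against 58.8% of all tested genes. Of the 133 that fell, 52 (39.1%) were lower in HR, against 41.2% of all. The test of the difference itself, the interaction over all 12 libraries, was called in 23.9% of 12357 genes, and in 168 (44.8%) of the 375 genes called in sham kidneys. Since the sham calls enter that test, the higher share is a description.

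The largest increases kept their direction after injury. Cyp4a14 differed by 1.47 in injured kidneys (25.8 FPKM in NR, 64.5 in HR; interaction adjusted p = 0.102), Cyp4a10 by 1.41 (adjusted p = 0.903), Rdh16f2 by 2.09 (adjusted p = 0.402) and Slc7a12 by 1.34 (adjusted p = 0.104). Hbb-bs differed by 0.59, but summed red cell FPKM ran from 762 to 2573 in HR and overlapped NR (834 to 1298). Of the 12 largest increases, Apoc3 differed between settings by this test: 1.35 in sham and 2.91 in injured kidneys (interaction 1.57, adjusted p = 0.0121).

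Several of the decreases differed between settings by this test. They were chosen by their fall in sham kidneys, which enters the interaction, so this too is a description. Cyp4a12a differed by -0.37 in injured kidneys (38.2 FPKM in NR, 29.1 in HR) against -2.75 in sham (interaction 2.38, adjusted p = 7.6e-05), and Acsm3 by -0.43 against -1.85 (interaction 1.42, adjusted p = 0.00151). For Kap, at -0.26 against -0.58, the difference was not called (adjusted p = 0.239). Of the 11 chaperone genes that fell in sham kidneys, 9 had a difference above 0 in injured ones, and Hsp90aa1 (-0.23) and Hsp90ab1 (-0.10) did not. Hspa5 differed by 0.50 in injured kidneys (257 FPKM in NR, 355 in HR; interaction 1.44, adjusted p = 0.00678) and Sdf2l1 by 1.59 (10.04 FPKM in NR, 29.7 in HR; interaction 2.60, adjusted p = 0.00242). In NR, Cyp4a12a and Hspa5 stood at other levels than in NS (84.5 and 341 FPKM), so the starting points of the 2 comparisons differ.

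**Figure D5:**
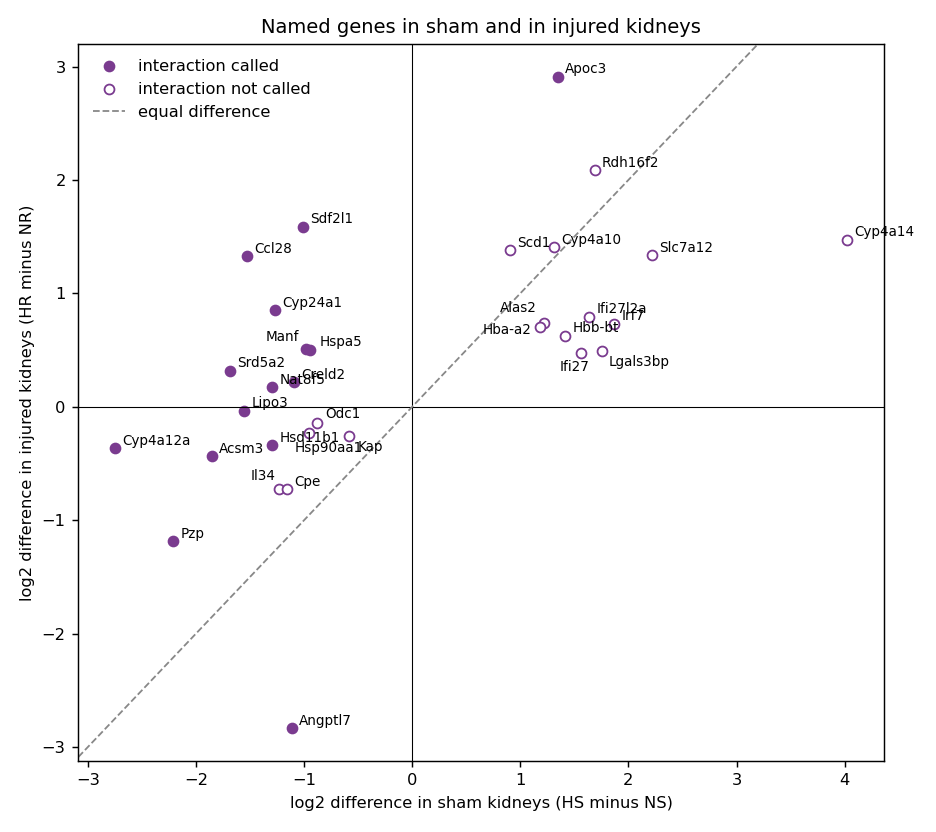
The log2 difference between preconditioned and normoxic kidneys in sham mice (x axis, HS minus NS) and in injured mice (y axis, HR minus NR) for the 24 genes of largest change and 8 more named genes, filled where the interaction was called. All increases lie above 0 on both axes, most of them below the dashed line of equal differences, while Cyp4a12a, Acsm3, Srd5a2 and the chaperones Hspa5 and Sdf2l1 lie well above it.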

How the data were processed

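The authors deposited 1 table of FPKM for 12 mouse kidney libraries, 1 value per gene symbol, with every column matched to a sample. Per the labels' protocols, RNA was extracted with TRIzol, prepared with the VAHTS Universal V10 chemistry and read on a DNBSEQ-T7 instrument, and all libraries carry batch 1. Per the submitters' processing notes, mm10, HTSeq and DESeq2 were used, with no role given, while aligner, annotation and strand setting were not given in the sources used here. Proteomic data were not analysed here.

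Preconditioned and normoxic sham libraries (3 and 3) were compared with limma 3.58.1 in R 4.3.3 (lmFit, eBayes with a mean-variance trend) on log2(FPKM + 1). This was done for genes that reached an FPKM of 1 in 3 or more of these libraries, two-sided, with Benjamini-Hochberg adjustment over all genes tested and calls at adjusted p under 0.05. The interaction was fitted to all 12 libraries. A fold change on this scale understates changes of low genes. Replicates are 3 mice per group, and no gene had the same FPKM above 0 in any pair of the 6 libraries. Their Pearson correlations across genes were 0.993 to 0.995 within NS, 0.991 to 0.995 within HS and 0.984 to 0.992 between groups. Whole reads were recovered from the steps between FPKM values for 25552 genes at a tolerance of 1e-06 of a read (for high counts, 1e-09 of the count), which gave the depth and 1 alternative (limma voom).

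Gene lists and the comparison were chosen with earlier results of these data known, so that no list is independent evidence, and the mitochondrial genome list was respelled to the symbols of the table. Named genes are the 12 largest increases and 12 largest decreases among called genes whose groups did not overlap, where the group with more had a mean FPKM of 5 or more, predicted gene symbols passed over. Up to 4 called members of each list by smallest adjusted p were added, with the genes of hypoxia, IL-17, injury and sex chromosomes. Other list members were named after their values were seen, among them Odc1, Slco1a1, Manf, Creld2, Isg15 and Ifit3. Of the symbols, 24328 were found in RefSeq on GRCm38.p6, the assembly behind mm10, which gave positions and promoters. The fit was tested on simulated data. Some results are not reported here, while counts over lists and over all genes include every gene. The alternatives were other pseudocounts (0.1 and 0.01), no filter or a filter at FPKM 5, median-ratio and quantile scaling, a fit of all 12 libraries, no trend, a replicate block, voom on recovered reads, and leaving out each library.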

Additional observations from a re-analysis of the deposited data

Results flagged for a closer look

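For 44 named genes the log2 difference between preconditioned and normoxic kidneys was not the same in injured as in sham mice, by limma's interaction test over the 12 libraries (adjusted p under 0.05 over 12357 genes, 23.9% of which were called). Each value below is the difference in injured kidneys less that in sham kidneys. Most of these genes were chosen by their difference in sham kidneys, which enters this test, so the values are a description. No cause was tested.

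Among tubule enzymes and transporters, the value was positive for Cyp4a12a (2.38), Acsm3 (1.42), Acsm2 (0.38), Srd5a2 (2.00), Hsd11b1 (0.96), Cyp24a1 (2.12), Nat8f5 (1.47), Lipo3 (1.52), Pzp (1.03), Sugct (0.35), Me1 (0.39), Slco1a6 (0.72), Slc13a1 (1.55), Slc25a23 (0.54) and Ace (0.65), and negative for the glutathione transferase Gsto1 (-0.78) and Kcnk1 (-0.43). Except for Slc13a1 and Slc25a23, the genes with a positive value had fallen in sham kidneys, and their difference after injury was nearer to 0 or above it. Those had risen in sham kidneys and had a larger difference after injury. In the collecting duct, the value was 1.46 for Avpr2, 1.17 for Slc4a1 and 1.70 for Atp6v1b1, all of which were higher with preconditioning in both settings.

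Chaperones were lower with preconditioning in sham kidneys, and all but Hsp90ab1 of those named were higher with it after injury. The values were Sdf2l1 (2.60), Manf (1.5), Hyou1 (1.48), Hspa5 (1.44), Hsp90b1 (1.37), Creld2 (1.31), Calr (1.09) and Pdia6 (0.90), and 0.57 for Hsp90ab1.

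Among secreted, lipid and matrix genes, values were Ccl28 (2.86), Apoc3 (1.57), C3 (1.43) and Scd2 (0.89) on the positive side and Angptl7 (-1.72), Srebf2 (-0.34) and Col18a1 (-0.54) on the negative side. Injury and stress markers were lower with preconditioning after injury while they were higher, or not called, in sham kidneys: Mt1 (-2.21), Lcn2 (-2.11) and Spp1 (-0.89). Among genes of hypoxia and the clock, values were Slc2a1 (-1.35), Hif1a (-0.74), P4ha1 (0.99) and Per2 (1.21). The Y-linked Ddx3y, kept as a check of sex, had a value of -0.80.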

How the results depend on the processing

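The number of genes called between sham groups moved with many of the settings. Against 375 calls (242 higher, 133 lower), there were 68 (40 and 28) with no filter, 52 (23 and 29) in a fit of all 12 libraries and 226 (142 and 84) with no trend. On recovered reads voom called 590 (407 and 183), and a filter at FPKM 5 gave 485 (326 and 159). Rescaling left fewer increases: 94 higher after median-ratio scaling and 105 after quantile normalization. Leaving out 1 library gave 55 to 265 calls (29 to 186 higher, 26 to 89 lower). Those fits have fewer samples; for the other settings the cause was not tested. Deviations of same-numbered libraries correlated at 0.015, -0.048 and -0.080, and those of other NS and HS pairs at -0.056 to 0.086. No pairing by replicate number was seen, though such small correlations cannot exclude one. With the replicate block 143 genes were called (84 higher, 59 lower), and the libraries share only a number. The interaction gave 2953 calls, and 2064 to 3513 when a library was left out.

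Over all alternatives 963 values of the named calls between sham groups kept their call and direction, 451 lost the call and none reversed. Of the 24 largest changes, 12 were called in the fit of all 12 libraries and 15 without NS3. Signs of differences near 0 turned for 5 genes that were not called: Vegfa was -0.015 after median-ratio scaling and -0.011 to 0.12 when a library was left out, Traf6 was -0.017 and -0.038 after median-ratio and quantile scaling, and with a library left out Egln3 ran from -0.205 to 0.045, Il17ra from -0.17 to 0.087 and Uty from -0.076 to 0.0033. With 3 mice per group, the spread between mice and low FPKM limit what can be detected.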

Other observations

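Outside the gene groups described so far, 3 genes with other roles were called in all 16 alternatives; they were chosen after their values were seen. Folh1, which encodes the glutamate carboxypeptidase II of the proximal tubule brush border, read 15.2, 13.6 and 16.3 FPKM in NS and 23.6, 25.6 and 26.4 in HS (0.71 ± 0.08, limma adjusted p = 0.00891). Kcnk1, a potassium leak channel, read 7.03, 6.65 and 7.36 FPKM in NS and 10.7, 10.3 and 11.8 in HS (0.57 ± 0.07, adjusted p = 0.0118). Sugct, a mitochondrial CoA transferase of glutarate breakdown, fell from 60.3 ± 1.77 (SD, n = 3) to 44.2 ± 0.494 FPKM (-0.44 ± 0.05, limma adjusted p = 0.00821). The groups did not overlap in any of them.

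The complement component C3 read 1.61, 2.31 and 2.20 FPKM in NS and 3.90, 5.08 and 3.94 in HS (0.80 ± 0.12, adjusted p = 0.0234), and its call was lost in 6 of 15 alternatives, among them those without NS1, NS2, NS3 or HS1. The metallothionein Mt1, a metal-binding protein, differed by 0.37 ± 0.07 (adjusted p = 0.0384) and kept its call in 4 of 16 alternatives. Cox6a2, a respiratory chain subunit best known from muscle, read 1.84, 3.84 and 3.87 FPKM in NS and 1.2, 0.935 and 1.10 in HS (-0.97 ± 0.20, adjusted p = 0.0488), with NS1 below the other NS libraries, and kept its call in 3 of 15 alternatives.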
